A study of Mus musculus with 6 samples.

Results

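Transcripts of 9 transcription factor genes that are linked to T-cell exhaustion were followed in mouse CD8+ T cells treated with an inhibitor of the histone demethylase LSD1. The genes were Tox, Tox2 and Tox4, Nr4a1, Nr4a2 and Nr4a3, and Nfatc1, Nfatc2 and Nfatc3. They were chosen by name, as the rows of the deposited table with these symbols, and all 9 were among its 16281 genes. Of the 9, 8 had enough counts to be tested, among 11698 genes in all, and Tox2 had not. The cells came from spleens of C57BL/6 mice of the genotype Tg(TcraTcrb)1100Mjb (OT1), whose transgene gives every sample in both groups a T-cell receptor for an ovalbumin peptide. All cultures were activated for 48 h through CD3 and CD28, with IL-2 present, and expanded in IL-2 for 3 days. The 3 GSK samples had GSK2879552 at 0.5 μM throughout, and the 3 Veh samples had vehicle. Polyadenylated RNA was sequenced at the end of culture, and the comparison asks how the inhibitor altered the transcriptome.

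TOX proteins bind DNA through a single HMG box, and TOX is the factor best known for establishing and maintaining the chromatin state of exhausted CD8+ T cells. NFAT proteins are held in the cytoplasm in phosphorylated form until calcium activates the phosphatase calcineurin, after which they enter the nucleus and act on cytokine genes, usually together with AP-1. NFAT that acts without AP-1 is known to drive genes of anergy and exhaustion, TOX and NR4A genes among them, and the NR4A orphan nuclear receptors are immediate early genes that follow T-cell receptor signals within a short time.

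The RNA fitted the labelled cell type. All 7 CD8 T-cell markers were tested, and their summed level lay between 3023 and 3143 CPM in Veh and between 2930 and 3081 CPM in GSK. CPM are counts per 1000000 of the TMM-scaled total of a sample. The CD8 coreceptor gene Cd8a measured 516 ± 19.0 CPM in Veh and 541 ± 13.1 in GSK (mean ± SD, n = 3 for each group throughout). Of the 7, Lck was higher and Cd3d, Cd3e and Cd3g were lower in GSK. The summed level was at most 5.46 CPM for 2 CD4 T-cell markers, 7.94 for B-cell, 15.5 for myeloid and 3.73 for NK-cell markers. Both CD4 markers had enough counts to be tested, with 1 of 5 B-cell, 3 of 5 myeloid and 1 of 2 NK-cell markers. None of those tested passed. Kdm1a, which encodes LSD1 itself, measured 92.8 ± 5.45 CPM in Veh and 87.1 ± 3.54 in GSK (adjusted p = 0.22). Its RNA does not report on the enzyme's activity under an inhibitor. The samples had between 18288447 and 19846720 counts each, and 1 count was worth 0.0506 to 0.0544 CPM.

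Between GSK and Veh, the 2 members that passed showed small differences. Nfatc2 rose by 21.7% and Nfatc3 fell by 9.20%, and the other 6 tested genes did not pass at an adjusted p under 0.05 (edgeR's quasi-likelihood test, Benjamini-Hochberg adjusted over all genes tested). At that threshold, 16.6% of all genes tested were higher, 15.5% were lower and 32.1% differed in either direction, which is to be read beside 2 of the 8 members. With a fold change over 1.5 in addition, 2.22% of all genes were called higher and 4.09% lower, together 6.32%, and 0 of the 8 members were called. At an unadjusted p under 0.05 from edgeR there were 3 members, Nr4a2 being the third, and none of them was past that fold. DESeq2 also called 0. All 3 GSK samples lay to one side of all 3 Veh samples for 3 of the 8 members (Tox, Nfatc2 and Nfatc3), and for 46.7% of all genes tested. The median log2 fold change was 0.0016 over the 8 members and -0.0039 over all genes. In bulk RNA, a lower level may come from fewer cells that carry the transcript or from less RNA per cell, and these cannot be told apart.

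**Figure D1:**
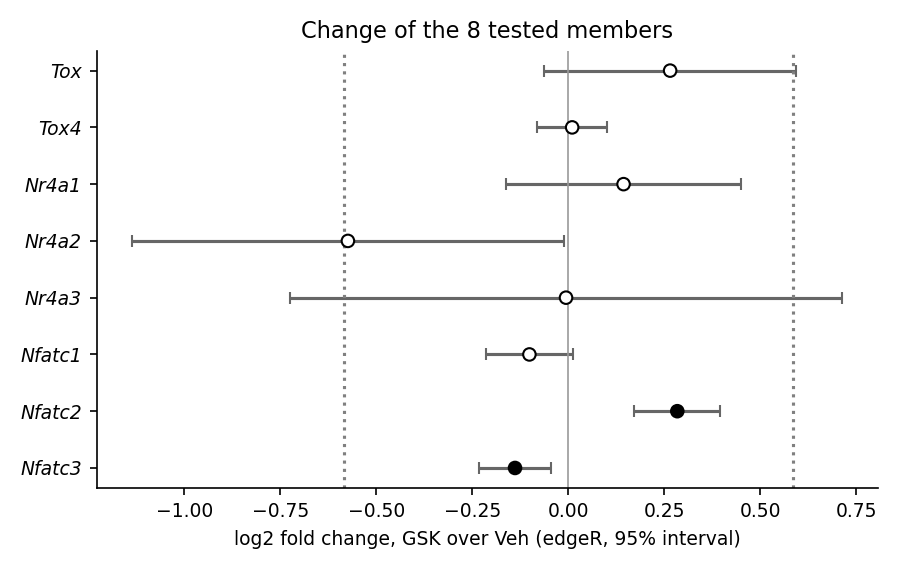
Log2 fold change of GSK against Veh for the 8 tested members, with 95% confidence intervals and dotted lines at a fold change of 1.5 either way; filled points have an adjusted p under 0.05. Nfatc2 lies to the right of 0 and Nfatc3 to the left, both well inside the dotted lines, and the intervals of Nr4a2 and Nr4a3 are the widest.

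The plot of fold changes shows that precision differed between the genes, within a family as well. The 95% interval ran from -0.08 to 0.10 on the log2 scale for Tox4 and from -0.73 to 0.71 for Nr4a3. The first interval leaves out a difference of the size seen for Nfatc2, and the second holds it in both directions.

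Divided by the length of their exons, the members spanned a wide range of levels. In Veh, Nfatc3 stood highest with 29.8 ± 0.970 CPM per kb, then Nfatc1 with 21.8 ± 1.12, Tox4 with 20.1 ± 0.432 and Nfatc2 with 16.6 ± 0.861. Nfatc1 and Tox4 differed by little more than their SDs, while the other neighbours among these 4 lay further apart. The NR4A genes followed at a much lower level, with 2.28 ± 0.605 CPM per kb for Nr4a3, 2.09 ± 0.131 for Nr4a1 and 1.21 ± 0.410 for Nr4a2, and the first 2 did not differ beyond their spread. Tox itself stood at 0.626 ± 0.0462 CPM per kb and Tox2 at 0.0156 ± 0.0155. In GSK, Nfatc2 (20.2 ± 1.05), Nfatc1 (20.3 ± 1.07) and Tox4 (20.2 ± 0.263) could no longer be told apart in this order. Such orders depend on the exon lengths used, and the SDs hold no error of these lengths. Not divided by length, the Veh means were 176 CPM for Nfatc2, 163 for Nfatc1 and 140 for Tox4.

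**Figure D2:**
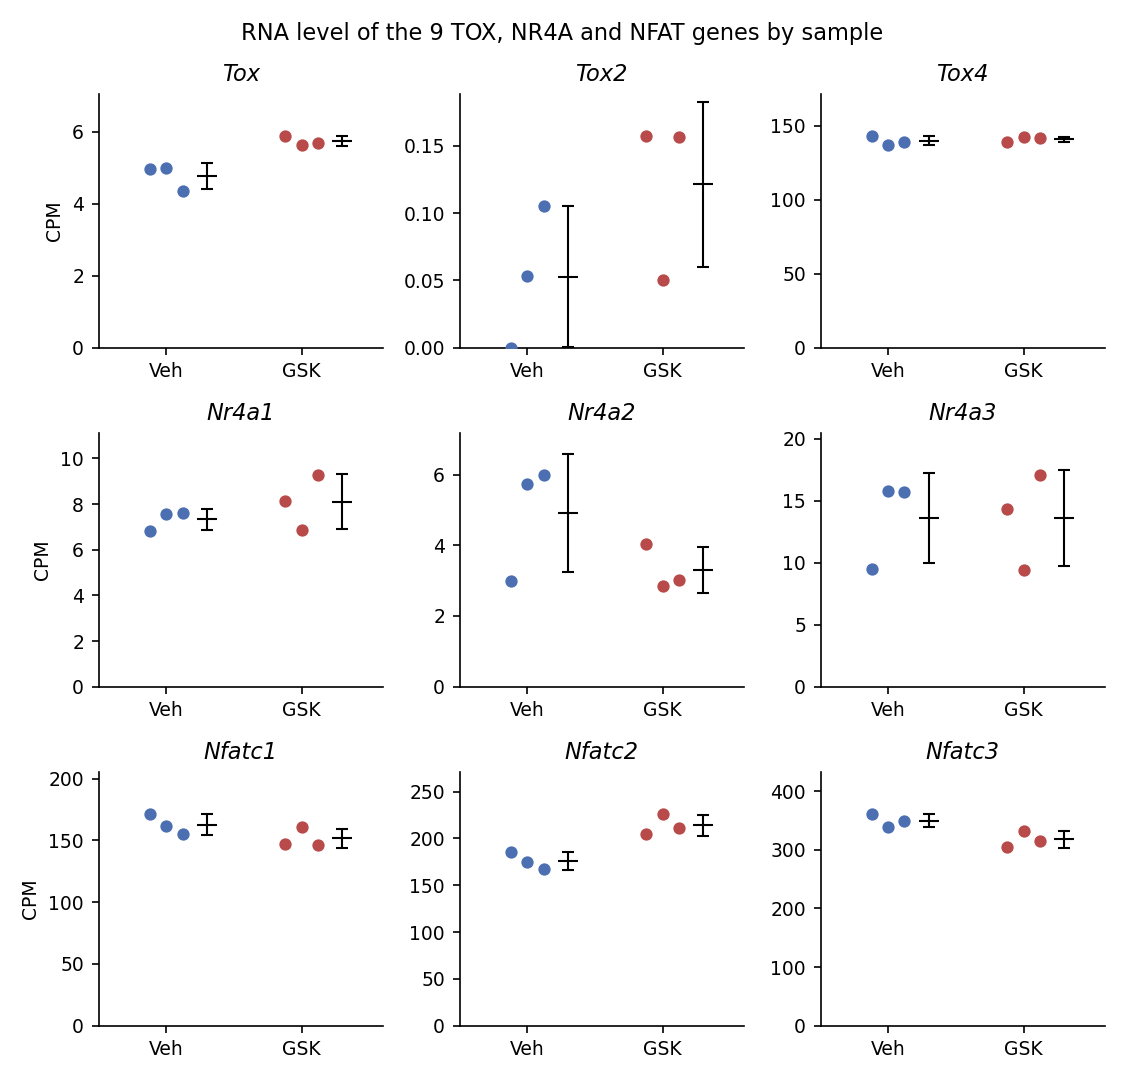
CPM of each of the 9 members in the 3 Veh and 3 GSK samples, 1 panel per gene with its own axis from 0; points are samples and the dash with bars is the mean ± SD. The groups do not overlap for Tox, Nfatc2 and Nfatc3, and the panels of Nr4a2 and Nr4a3 show the widest spread within a group among the tested members.

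The TOX family was represented by Tox4. This gene, a widely expressed family member known from a phosphatase complex on chromatin, measured 143, 137 and 139 CPM in the Veh samples and 139, 142 and 141 CPM in the GSK samples. The groups overlapped fully, and the log2 fold change was 0.0096 (SE 0.042, adjusted p = 0.88). Tox4 lies on chr14:52279146-52296401 (GRCm38, plus strand). Of its exon bases, 13.4% also belong to Mettl3 and 2.81% to Rab2b, both on the other strand, and 6.35% of its 50-base stretches also occur in the predicted gene Gm5828. Whether the counting used the strand is not given in the sources used here, so part of the Tox4 counts is uncertain.

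Tox, the exhaustion factor after which the family is named, was expressed at a low level in both groups. It measured 4.95, 4.99 and 4.36 CPM in the Veh samples and 5.88, 5.62 and 5.68 CPM in the GSK samples, from 83 to 112 counts. Every GSK sample was above every Veh sample, as for 23.7% of all genes tested, and the means were 4.77 ± 0.351 and 5.73 ± 0.137 CPM. The log2 fold change of 0.26 (SE 0.15, 95% interval -0.06 to 0.59) did not pass (adjusted p = 0.20). Counting alone gives a coefficient of variation near 10.6% at the Veh level of Tox, and the Veh cultures differed by 7.37%, so the depth limits what can be seen for this gene. Tox lies on chr4:6686353-6991557 (minus strand), where 3.42% of its exon bases overlap the antisense gene Gm11802.

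Tox2, a related factor known from follicular helper T cells, was at the limit of detection. It had 0, 1 and 2 counts in the Veh samples and 3, 1 and 3 counts in the GSK samples. All 6 values were at or under 3 counts, the limit that a count of 0 allows, so no fold was computed. Its gene lies on chr2:163203125-163324170. Tox3, the remaining family gene, was also too low to test, with at most 7 counts in any sample. By length-scaled level, Tox4 thus made up 96.9% of the summed level of Tox, Tox2 and Tox4 in Veh and 96.3% in GSK, and Tox 3.02 ± 0.220% and 3.58 ± 0.126%.

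The promoters of the 3 NR4A genes share a feature of immediate early genes, which is why they are shown before their values. The 250 bases before an inner start of Nr4a1 and before the outermost start of Nr4a2, and short stretches before an inner start of Nr4a3, are given 5′ to 3′ on the strand of the gene, from the RefSeq promoter table of build GRCm38.p6. Nr4a1 and Nr4a3 are on the plus strand and Nr4a2 is on the minus strand. The table holds 1 such window for each of them. The window of Nr4a1 lies within the gene (chr15:101254269-101274795), and part of that of Nr4a3 lies after its outermost RefSeq start at position 48045078. Capitals mark TGACG, or CGTCA on the other strand, the core of the site that CREB and ATF factors bind.
Nr4a1, chr15:101266596-101266845: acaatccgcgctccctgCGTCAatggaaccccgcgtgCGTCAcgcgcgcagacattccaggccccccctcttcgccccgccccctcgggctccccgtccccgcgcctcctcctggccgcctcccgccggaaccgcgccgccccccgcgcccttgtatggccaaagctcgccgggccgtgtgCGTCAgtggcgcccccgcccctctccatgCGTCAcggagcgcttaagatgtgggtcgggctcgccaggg
Nr4a2, chr2:57124004-57124253: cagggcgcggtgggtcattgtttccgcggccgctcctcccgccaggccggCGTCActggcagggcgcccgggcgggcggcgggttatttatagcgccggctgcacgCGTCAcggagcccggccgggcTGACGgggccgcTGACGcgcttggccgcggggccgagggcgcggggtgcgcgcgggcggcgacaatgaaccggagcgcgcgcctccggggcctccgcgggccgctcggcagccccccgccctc
Nr4a3, chr4:48045065-48045084: ggaggagggTGACGtagcgt
Nr4a3, chr4:48045088-48045112: atgtCGTCAcatTGACGtctcgcat
Nr4a3, chr4:48045149-48045171: tggcataaaTGACGtgccgagag

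Each of the 3 promoters held 4 matches to TGACG on either strand within 250 bases, and the 3 stretches of Nr4a3 hold its 4. Of the 32851 windows of this length in the table, 17.8% held at least 1 match and 0.137% (45 windows) at least 4. TGACG contains CG, and these promoters were rich in CG. The windows of Nr4a1, Nr4a2 and Nr4a3 held 34, 44 and 18 CG, against a median of 6 over all windows. The shares are not matched for CG, so they overstate how rare 4 matches are among windows like these. A match is a run of letters and does not show that a factor was bound in these cells. GGAAA, or TTTCC, the core of the NFAT site, occurred once in the Nr4a2 window and was absent from these letters in the windows of Nr4a1 and Nr4a3, against 55.6% of all windows with at least 1.

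None of the NR4A genes passed the test. Nr4a1, or Nur77, the member most used as a reporter of T-cell receptor signal strength, measured 6.80, 7.56 and 7.62 CPM in the Veh samples and 8.14, 6.88 and 9.28 CPM in the GSK samples. The groups overlapped through the second GSK sample, and the log2 fold change was 0.14 (SE 0.14, 95% interval -0.16 to 0.45, adjusted p = 0.47). Nr4a3, or Nor1, measured 9.46, 15.8 and 15.7 CPM in Veh and 14.3, 9.41 and 17.1 CPM in GSK. Its group means were equal at 13.6 CPM, while 1 sample of each group was far below the others, and the log2 fold change was -0.0063 (SE 0.29, adjusted p = 0.99). With single samples left out, the sign of this difference turned.

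Nr4a2, or Nurr1, a nuclear receptor also known from dopamine neurons, had the lowest level of the family. It measured 2.99, 5.74 and 5.99 CPM in the Veh samples and 4.04, 2.83 and 3.02 CPM in the GSK samples. The first Veh sample lay among the GSK samples, and the other Veh samples lay above all of them. The log2 fold change was -0.57 (SE 0.26, 95% interval -1.14 to -0.01), the largest in size of the 8 members, and it did not pass (adjusted p = 0.11). It passed in 1 of 6 fits that left out a sample. Without the first Veh sample, the log2 fold change was -0.83 and passed (adjusted p = 0.014). Without the second or the third Veh sample it shrank to -0.45 and -0.40 and did not pass (adjusted p = 0.29 and 0.33). Among the summed length-scaled levels of the 3 genes, Nr4a2 made up 21.2 ± 3.39% in Veh and 15.3 ± 2.95% in GSK, and Nr4a1 38.3 ± 6.26% and 43.1 ± 2.94%, with overlapping groups for both genes.

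Nr4a2 and Nr4a3 varied more between cultures of 1 group than the other members that were tested. In Veh, the coefficient of variation was 33.9% for Nr4a2 and 26.6% for Nr4a3, where counting alone gives 10.4% and 6.25%. In GSK, it was 28.6% for Nr4a3 with 6.17% from counting. Nr4a1 varied less, with 6.26% in Veh and 14.8% in GSK, and Tox had 7.37% and 2.38%. For the 3 NFAT genes and Tox4, it was at most 5.26% in either group. The first Veh sample was the lowest of its group for all 3 NR4A genes, and the second GSK sample was the lowest of its group for all 3 as well.

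**Figure D3:**
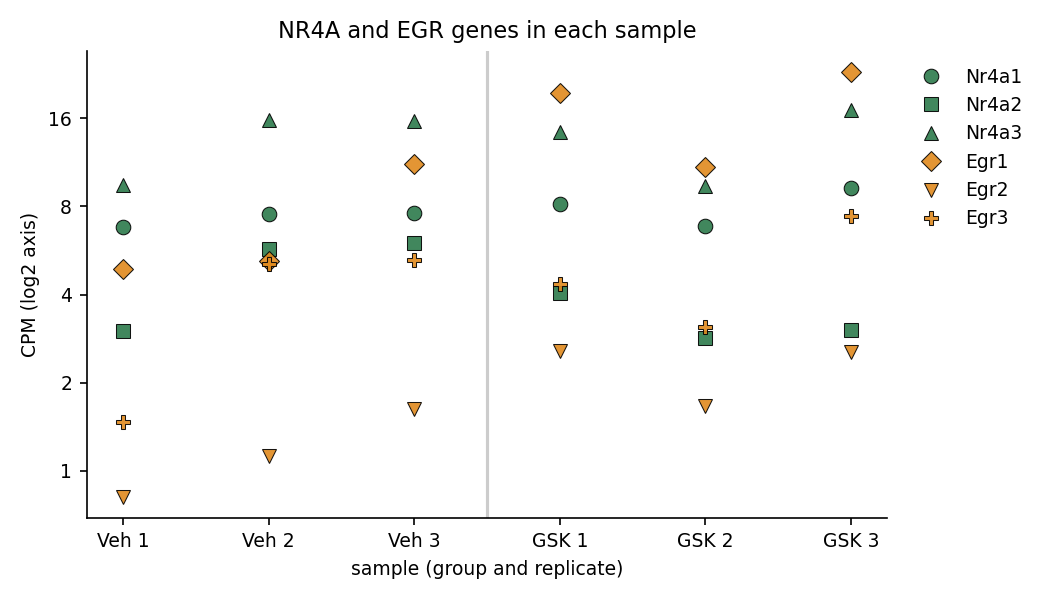
CPM on a log2 axis of Nr4a1, Nr4a2, Nr4a3, Egr1, Egr2 and Egr3 in each sample, with 1 symbol per gene, NR4A genes in green and EGR genes in orange. The first Veh sample is the lowest of its group for all 6 genes, with 1.47 CPM for Egr3 and 0.816 CPM for Egr2, and so is the second GSK sample.

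Other immediate early genes gave the setting for this spread. Egr3, chosen after its values were seen as another gene induced by NFAT and the T-cell receptor, measured 1.47, 5.10 and 5.26 CPM in Veh and 4.36, 3.09 and 7.40 CPM in GSK, and did not pass (adjusted p = 0.69). Egr1, chosen in the same way, measured 4.90, 5.20 and 11.1 CPM in Veh and 19.5, 10.9 and 23.0 CPM in GSK. Its log2 fold change of 1.33 (SE 0.46) did not pass in the robust edgeR fit (adjusted p = 0.093). It passed with DESeq2 (adjusted p = 0.028), in edgeR without robust estimation (0.0085) and without the third Veh sample (0.024). As the plot of NR4A and EGR genes shows, the first Veh sample and the second GSK sample were again the lowest of their groups for both. Most other genes of the immediate early list described next did not share this order. Btg2 and Jun had these 2 samples as the highest of their groups, and Atf3, named after its values were seen, had them as the lowest. The cause of the spread was not tested. A list of 10 immediate early genes without the NR4A genes had 9 tested. With edgeR, 0 of these were higher and 3 lower, beside 16.6% and 15.5% of all genes, with a median log2 fold change of -0.17. At an unadjusted p under 0.05, 3 were higher, and the alternatives that kept all samples gave 0 to 2 higher. Without single samples, 1 or 2 of the 9 were lower. Btg2, an antiproliferative gene, fell from 88.4 ± 3.59 to 52.8 ± 7.02 CPM (log2 fold change -0.74, SE 0.082, adjusted p = 8.9e-05). Jun, which encodes an AP-1 partner of NFAT, had a log2 fold change of -0.34 (adjusted p = 0.031) with overlapping groups, and passed in 2 of 6 fits that left out a sample. Myc, at 178 ± 15.9 CPM in Veh and 199 ± 14.4 in GSK, did not pass (adjusted p = 0.091).

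The NFAT genes were, with Tox4, the most abundant of the 9, and 2 of the 3 passed, in opposite directions. Nfatc2 encodes NFAT1, the form that resting T cells already hold and that has been tied most closely to anergy and exhaustion. It measured 186, 174 and 168 CPM in the Veh samples and 205, 226 and 211 CPM in the GSK samples. All GSK samples were above all Veh samples, and the means were 176 ± 9.11 and 214 ± 11.1 CPM. The log2 fold change was 0.28 (SE 0.052, 95% interval 0.17 to 0.40, adjusted p = 0.0013), and it passed in all 12 alternatives, those that left out a sample included.

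Nfatc3 encodes NFAT4, a form that is high in thymocytes. It measured 361, 338 and 350 CPM in the Veh samples and 305, 332 and 315 CPM in the GSK samples. Every GSK sample was below every Veh sample, and the means were 350 ± 11.4 and 318 ± 13.8 CPM. The log2 fold change was -0.14 (SE 0.044, 95% interval -0.23 to -0.04, adjusted p = 0.028). This call was fragile. It was lost without the first or the third Veh sample and without the first or the third GSK sample, where the adjusted p reached up to 0.14. Nfatc3 lies on chr8:106058840-106130537 (plus strand), and 1.87% of its exon bases overlap Esrp2 on the other strand, which had a mean of 3.17 counts per sample.

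Nfatc1 encodes NFAT2, whose short isoform is induced by NFAT itself after activation. It measured 171, 162 and 155 CPM in the Veh samples and 147, 161 and 147 CPM in the GSK samples. The groups overlapped through the second GSK sample, which lay above the third Veh sample. The log2 fold change was -0.10 (SE 0.052, 95% interval -0.21 to 0.01) and missed the threshold (adjusted p = 0.16). Without the second GSK sample, it was -0.15 and passed (adjusted p = 0.034), the only pass in 6 fits that left out a sample. Without the first Veh sample, it was -0.06 (adjusted p = 0.47). The gene lies on chr18:80606205-80713071 (minus strand), and counts per gene do not separate its isoforms.

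Nfat5, which answers to osmotic stress and lacks the calcineurin-binding part of the others, measured 83.9 ± 2.07 CPM in Veh and 79.1 ± 2.06 in GSK (adjusted p = 0.20). Nfatc4 had at most 4 counts in a Veh sample and 15 in a GSK sample and was not tested.

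Since both Nfatc2 and Nfatc3 passed in opposite directions, their counts were also set against each other within each sample, a comparison chosen after the values were seen. This ratio does not depend on the scaling of the libraries. Nfatc2 counts per Nfatc3 count were 0.514, 0.515 and 0.480 in the Veh samples and 0.671, 0.681 and 0.670 in the GSK samples. The groups were far apart against their spread, with means of 0.503 ± 0.0201 and 0.674 ± 0.0059, a difference of 0.42 on the log2 scale or 1.34-fold. Since the groups did not overlap for either gene and moved opposite ways, the separation of this ratio follows from the choice of the pair, and it is given without a test.

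Nfatc2 counts per Nfatc1 count were 1.08 in each of the 3 Veh samples and 1.39, 1.41 and 1.44 in the GSK samples, a 1.31-fold difference. Nfatc1 counts per Nfatc3 count were 0.475, 0.478 and 0.443 in Veh and 0.483, 0.484 and 0.465 in GSK, and those groups overlapped.

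**Figure D4:**
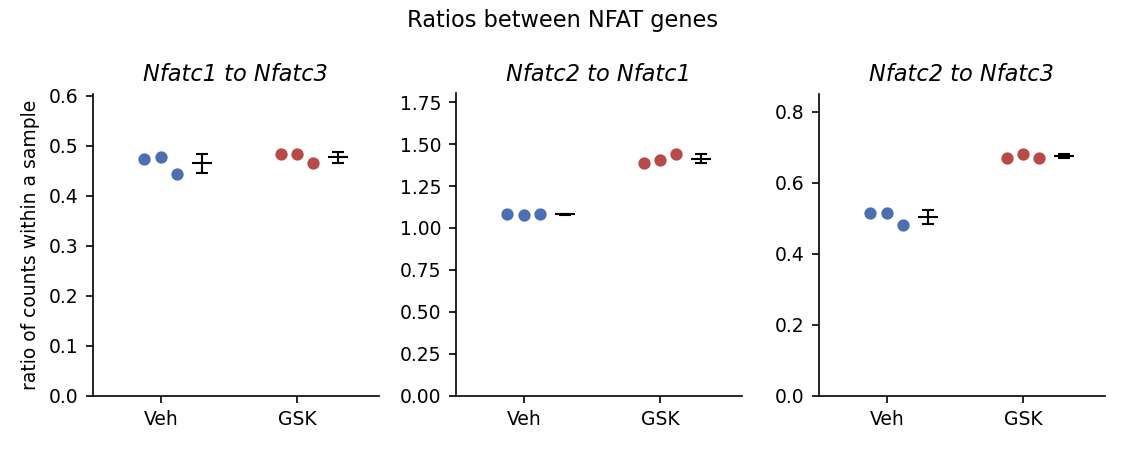
Counts of 1 NFAT gene divided by those of another in each of the 3 Veh and 3 GSK samples, with points for samples and a dash with bars for mean ± SD. The GSK samples lie above the Veh samples for Nfatc2 to Nfatc3 (0.674 against 0.503) and Nfatc2 to Nfatc1 (1.41 against 1.08), and overlap with them for Nfatc1 to Nfatc3.

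As shares of the summed length-scaled level of the 3 genes, Nfatc2 went from 24.4 ± 0.421% in Veh to 29.9 ± 0.186% in GSK. Nfatc3 went from 43.7 ± 1.02% to 40.1 ± 0.339%, and Nfatc1 from 31.9 ± 0.597% to 30.0 ± 0.434%. The spread of these shares between cultures was smaller than that of the CPM, since the first Veh sample and the second GSK sample were the highest of their groups for all 3 genes. Shares sum to the whole, so that a larger share of Nfatc2 alone lowers the others.

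The 250 bases before the outermost start of Nfatc2 are shown because this was the member that passed as higher in every alternative. They adjoin the gene (chr2:168476410-168601657, minus strand) and are given 5′ to 3′ on its strand, with GGAAA or TTTCC in capitals.
Nfatc2, chr2:168601658-168601907: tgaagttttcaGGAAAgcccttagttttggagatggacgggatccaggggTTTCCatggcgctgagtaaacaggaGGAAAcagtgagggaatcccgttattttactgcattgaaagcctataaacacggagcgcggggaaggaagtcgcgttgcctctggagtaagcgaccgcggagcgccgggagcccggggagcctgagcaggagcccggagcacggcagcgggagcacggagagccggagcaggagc

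This window held 3 matches to GGAAA on either strand and none to TGACG, and 6.39% of the 32851 windows of the same length held at least 3 of the former. The window before an inner start of Nfatc2 held 1. Of the 9 members, 7 were found in the promoter table, and Tox and Nfatc1 were not. No data on binding or chromatin at these windows were used here.

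The genes whose level across the 6 samples was most like that of Nfatc2 were Fyn and Wdr78, with Pearson's r of 0.999 and 0.993 on log2 CPM among 9604 genes with a mean of at least 5 CPM. Fyn, which encodes a Src-family kinase of T-cell receptor signalling, rose from 275 ± 18.3 to 345 ± 18.2 CPM (log2 fold change 0.33, SE 0.054, adjusted p = 7.5e-04). Wdr78 rose from 17.7 ± 2.37 to 25.3 ± 2.15 CPM (adjusted p = 0.0022), and Mier1, on the other strand, overlaps 1.78% of its exon bases. For Nfatc3, the most similar were Ccnl2 and Cyth4, with r of 0.995 and 0.994. Both were lower in GSK, with log2 fold changes of -0.16 (adjusted p = 0.023) and -0.21 (adjusted p = 0.0093). With 6 samples in 2 groups, such likeness is common, and 373 genes for Nfatc2 and 671 for Nfatc3 had an r over 0.9.

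Upstream of NFAT, genes of calcium entry and calcineurin moved in both directions. Of 16 genes, all tested, 2 were higher and 5 lower, beside 16.6% and 15.5% of all genes, none of them past a fold change of 1.5, with a median log2 fold change of -0.032. Single left-out samples gave 1 or 2 higher and 3 to 6 lower. The genes that were lower included 2 of the 3 inositol trisphosphate receptors, which release calcium from the endoplasmic reticulum. Itpr2 fell from 76.2 ± 4.45 to 56.2 ± 5.32 CPM (log2 fold change -0.44, SE 0.071, adjusted p = 6.5e-04). Itpr3 fell from 170 ± 6.25 to 144 ± 4.55 CPM (log2 fold change -0.24, SE 0.046, adjusted p = 0.0017). The other 3, named after their values were seen, were Plcg1, which makes inositol trisphosphate, and Stim1 and Stim2, which sense the emptied store, with log2 fold changes of -0.26, -0.20 and -0.16.

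The calcineurin subunits did not pass. The catalytic subunits Ppp3ca, Ppp3cb and Ppp3cc had log2 fold changes of 0.099, 0.011 and -0.074 (adjusted p = 0.11, 0.87 and 0.27). Ppp3r1, the regulatory subunit, had one of 0.11 (adjusted p = 0.062). All GSK samples lay above all Veh samples for Ppp3ca and Ppp3r1, as for 23.7% of all genes tested.

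Other genes hold NFAT back. The list of calcineurin inhibitors and NFAT export kinases held 12 genes, of which 9 were tested. Of these, 0 were higher and 1 was lower, beside 16.6% and 15.5% of all genes, with a median log2 fold change of 0.039. The count of 0 held for edgeR at an unadjusted p under 0.05, for DESeq2 and for the other alternatives. Csnk1a1, a casein kinase that phosphorylates NFAT, fell from 427 ± 1.34 to 376 ± 7.38 CPM (log2 fold change -0.18, SE 0.036, adjusted p = 0.0023). Cabin1, a calcineurin inhibitor, measured 142 ± 1.49 CPM in Veh and 151 ± 1.70 in GSK with no overlap, and did not pass (adjusted p = 0.12). Rcan1, itself a known NFAT target that feeds back on calcineurin, was at 7.33 ± 0.508 and 7.68 ± 0.532 CPM (adjusted p = 0.72).

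**Figure D5:**
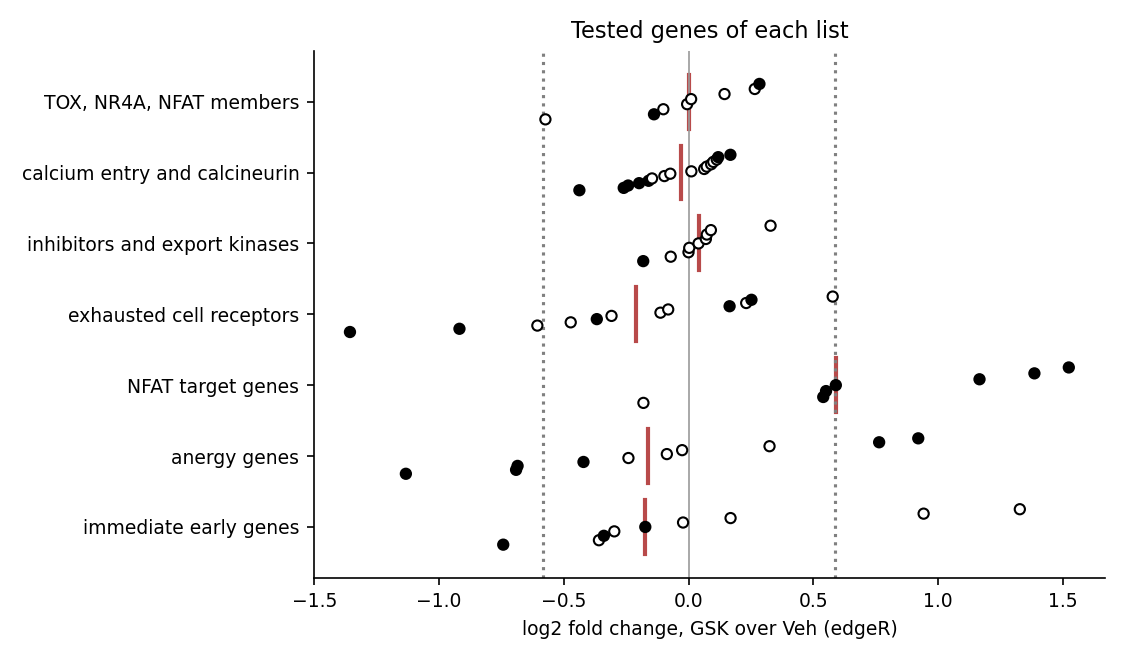
Log2 fold change of GSK against Veh for the tested members and the tested genes of 6 lists around them, 1 point per gene with each median as a red bar; filled points have an adjusted p under 0.05 and dotted lines mark a fold change of 1.5. The NFAT target genes have a median of 0.59, and the medians of the other lists lie between -0.21 and 0.039.

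Downstream, a list of genes that NFAT is known to act on in activated T cells had a median log2 fold change above that of each NFAT gene. Of its 10 genes, 7 were tested, 6 were higher and 0 lower with edgeR, and 4 of the 6 were past a fold change of 1.5, against 16.6% and 2.22% of all genes. The median log2 fold change was 0.59. The 0 also stood at an unadjusted p under 0.05, with DESeq2 and in the other alternatives, and single left-out samples gave 5 or 6 higher. The list overlaps cytokine genes whose rise in these samples was known before it was drawn up, so it is not independent evidence of a direction. It also leaves out other genes that are named here as targets of NFAT or as induced by it. Of these, Pdcd1 fell (log2 fold change -0.92) and Egr2 rose (0.92). Rcan1 (0.069), Egr3 (0.32), Tox and the NR4A genes did not pass. Tnf rose from 29.6 ± 1.57 to 66.4 ± 6.18 CPM (log2 fold change 1.17, SE 0.076, adjusted p = 6.4e-07). Ifng went from 2.39, 6.33 and 5.52 CPM in Veh to 12.8, 10.4 and 14.2 CPM in GSK (log2 fold change 1.39, SE 0.31, adjusted p = 0.014), and its adjusted p reached 0.051 without 1 of the samples. A predicted gene on the same strand covers 26.0% of its exon bases.

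The remaining members of this list differed in level by a wide margin. Il2ra, the high-affinity chain of the IL-2 receptor, rose from 854 ± 26.7 to 1285 ± 55.5 CPM (log2 fold change 0.59, SE 0.038, adjusted p = 6.4e-07), just past the fold change of 1.5. Cd40lg rose from 0.446 ± 0.315 to 1.29 ± 0.200 CPM (log2 fold change 1.52, SE 0.44, adjusted p = 0.018), and passed in 3 of 6 fits that left out a sample. Fasl and Irf4, named after their values were seen, rose with log2 fold changes of 0.54 and 0.55. Csf2, at a log2 fold change of -0.18, did not (adjusted p = 0.62). Il2, the best known NFAT target, had at most 0.381 CPM in any sample and was not tested, nor were Il3 and Il4.

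Genes tied to anergy moved both ways. Of 10 genes, 2 were higher and 4 lower, beside 16.6% and 15.5% of all genes. Past the fold change of 1.5 were 2 and 3 of these, beside 2.22% and 4.09% of all genes, and the median log2 fold change was -0.16. Single left-out samples gave 0 to 2 higher and 2 to 4 lower. Ndrg1, known as an anergy factor in T cells and also as a gene induced by low oxygen, fell from 175 ± 11.9 to 79.6 ± 9.24 CPM (log2 fold change -1.13, SE 0.082, adjusted p = 1.5e-05). Cblb, a ubiquitin ligase that dampens T-cell receptor signals, fell from 230 ± 5.86 to 172 ± 16.6 CPM (log2 fold change -0.42, SE 0.061, adjusted p = 3.9e-04). Dgka, a diacylglycerol kinase, fell from 504 ± 47.0 to 313 ± 51.5 CPM (log2 fold change -0.69, SE 0.14, adjusted p = 0.020), and did not pass in 2 of 6 fits without a sample.

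The other called genes of the anergy list were weakly held. Egr2, a factor induced by NFAT that limits activation, measured 1.19 ± 0.410 CPM in Veh and 2.27 ± 0.516 in GSK (log2 fold change 0.92, SE 0.31, adjusted p = 0.039). Rnf128, the ubiquitin ligase GRAIL, went from 3.20 ± 0.868 to 1.98 ± 0.216 CPM (log2 fold change -0.69, adjusted p = 0.049). Each of these passed in 2 of 6 fits that left out a sample, and neither passed with DESeq2 (adjusted p = 0.069 and 0.093). Nt5e, which encodes CD73, went from 24.9 ± 4.97 to 42.2 ± 9.05 CPM (log2 fold change 0.76, adjusted p = 0.037) and passed in 3 of 6, and not without a filter on low counts (0.092). Genes on the other strand overlap 7.28% of the exon bases of Jun, 6.35% and 2.08% of those of Ndrg1 (by 2 genes), 2.58% of those of Itpr3 and 2.20% of those of Dgka, and their counts carry the same uncertainty as those of Tox4.

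Receptors found on exhausted cells also moved both ways. Of 12 genes, 2 were higher and 3 lower, beside 16.6% and 15.5% of all genes, with a median log2 fold change of -0.21, and their direction too was partly known from earlier results. Their summed level, of which Ctla4 and Tnfrsf9 made up most, lay between 886 and 1015 CPM in Veh and between 740 and 793 CPM in GSK. Single left-out samples gave 0 to 2 higher and 3 to 5 lower. Pdcd1, which encodes PD-1 and is a known target of NFATc1, measured 19.7, 28.6 and 23.0 CPM in Veh and 13.0, 12.9 and 11.9 CPM in GSK (log2 fold change -0.92, SE 0.12, adjusted p = 2.5e-04). Ctla4 fell from 328 ± 49.5 to 128 ± 18.4 CPM (log2 fold change -1.36, SE 0.16, adjusted p = 0.0034), and Entpd1, or CD39, from 49.5 ± 1.89 to 38.3 ± 1.52 CPM (log2 fold change -0.37, SE 0.061, adjusted p = 7.3e-04). Tnfrsf9, or 4-1BB, was the most abundant of the list and had a log2 fold change of 0.16 (adjusted p = 0.040) with overlapping groups. It passed in 2 of 6 fits without a sample. Tigit, named after its values were seen, was the other higher gene (log2 fold change 0.25, adjusted p = 0.035), with no overlap. Havcr2, or TIM-3, and Lag3, named in the same way, did not pass. Their log2 fold changes were 0.58 without overlap (adjusted p = 0.091) and -0.47 with overlap (adjusted p = 0.10).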

How the data were processed

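CD8+ T cells of OT1 mice were compared after culture with GSK2879552 (GSK, 3 samples) or vehicle (Veh, 3 samples). The authors trimmed reads with Trimmomatic, mapped them to GRCm38 with HISAT2 (version 2.1.0) and counted them per gene with HTSeq (version 0.11.2), and the deposited values are these raw counts. The kit was stranded, and the strand setting and annotation release of the counting are not given in the sources used here. By the paper, cells came from 3 mice, and whether a replicate number stands for a mouse is not given in the sources used here, so it was a block only in an alternative.

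The test was edgeR's (version 4.0.16, in R version 4.3.3), with TMM scaling, filterByExpr and the robust quasi-likelihood test, Benjamini-Hochberg adjusted. Called genes also had a fold change over 1.5, the limit in the study's methods. Standard errors came from the fold change and its test statistic. Alternatives were DESeq2 (version 1.42.0), RLE scaling, 2 other filters, a non-robust fit, the block, a test against the fold of 1.5 and leaving out each sample. The edgeR test was also run on simulated counts, whose outcome is not reported here. Those counts were drawn independently for each gene and sample, so they hold no spread that genes share. Replicates of a group differed by more than counting noise (chi-square per degree of freedom 3.95 to 9.02). Intervals of fold changes are at 95% and not adjusted.

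Members and gene lists were chosen with earlier results of these data known. Besides the members, the genes named were their family relatives, Kdm1a, the 2 genes most like each member that passed, and from each list the called genes, the most abundant and the 2 of smallest p. Genes named otherwise are said to have been chosen after their values were seen, as were Cd8a, Cd3d, Cd3e, Cd3g, Lck, Ppp3ca, Ppp3cb, Ppp3cc, Ppp3r1, Rcan1, Csf2 and the untested cytokine genes. Lengths are merged exons of GENCODE on GRCm38. Sequences are from RefSeq. Some genes that the rule names are not reported here. Proteins and chromatin data were not used here.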

Additional observations from a re-analysis of the deposited data

How the results depend on the processing

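Nfatc2 was higher in all 12 alternatives (log2 fold change 0.24 to 0.32, adjusted p at most 0.012). The count of members that were lower was 0 with the replicate block, where Nfatc3 had an adjusted p of 0.067, and 0 to 2 with single samples left out. The count of members called lower was 0 to 1 with single samples left out, Nr4a2 being called without the first Veh sample. Same-numbered samples did not deviate together (correlation of deviations -0.052, -0.081 and 0.16), so the numbers were not taken as pairs, and with the block 253 genes were called higher and 447 lower, against 260 and 479. With it, Egr2 (adjusted p = 0.052), Rnf128 (0.083) and Tnfrsf9 (0.065) lost their calls, and Egr1 (9.1e-04) and Myc (0.038) passed. Testing against a fold change of 1.5 left 69 genes higher and 65 lower, which follows from the stricter hypothesis. With single samples left out, the log2 fold change changed sign for Tox4 (-0.0040 to 0.027), Nr4a3 (-0.21 to 0.20, with 0.11 without the second or the third Veh sample and 0.20 without the second GSK sample) and Egr3 (-0.089 to 0.59, with -0.066 without the first Veh sample). The causes were not tested. The difference in family share ran from -3.98 to -3.08 percentage points for Nfatc3, from 2.97 to 8.42 for Nr4a1 and from -0.94 to 3.35 for Nr4a3, so that the last changed sign. Depth limits Tox2 and Tox, whereas Nr4a2 and Nr4a3 differed between cultures by more than counting gives.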
